A study of Mus musculus with 77 samples.

Results

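The mRNAs of 10 selenoproteins, the small family of proteins that carry the amino acid selenocysteine, were followed in mouse liver by ribosome profiling and RNA-seq. The members were chosen by name: Gpx1, Gpx4, Selenop, Txnrd1, Txnrd2, Dio1, Selenof, Selenow, Selenok and Msrb1. All 10 are among the 25266 genes of the count files, and all 10 were among the 10696 genes with enough reads to test. The livers came from 24 adult male mice on a C57BL/6J background, aged 12 to 24 weeks. One line carried the Aco1 tm1.1Mwh allele (Aco1-/-, without iron regulatory protein IRP1) or was Aco1+/+, and the other carried the Ireb2 tm1.2Mwh allele (Ireb2-/-, without IRP2) or was Ireb2+/+. Each of the 4 genotypes was sampled at ZT5 (the middle of the light phase) and at ZT12 (lights off), with 3 livers in each of the 8 groups, and each liver gave a library of ribosome-protected fragments (RPF) and a library of total RNA. Both alleles are whole-body deletions, so the hepatocytes and all other cells of the liver lacked the protein, and the Aco1 allele disrupts the reading frame but still gives an mRNA.

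Selenocysteine is inserted at UGA, a codon that elsewhere stops translation. Recoding needs a hairpin in the 3′ UTR of the mRNA (the SECIS element), the SECIS-binding protein SECISBP2, the elongation factor EEFSEC and a dedicated tRNA, so output depends on translation as well as on mRNA level. The liver is the source of plasma selenoprotein P, which carries selenium to other organs. Selenoproteins are known to differ in how strongly they depend on selenium supply, with Gpx1 and Selenow among the most sensitive and Gpx4 and Txnrd1 among the better protected. Selenium was not measured in these livers. Recoding itself was not measured either, since the counts do not separate the reading frame before the UGA from the part after it.

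The libraries matched their labels in the groups compared here, at both timepoints of the Aco1 line and at ZT5 of the Ireb2 line. Aco1 RPFs were 410 ± 70.2 CPM (counts scaled to a common library size; mean ± SD, n = 3) in Aco1+/+ and 79.8 ± 4.46 in Aco1-/- at ZT5, and 561 ± 43.4 against 110 ± 12.7 at ZT12. Ireb2 RPFs were 74.7 ± 6.98 CPM in Ireb2+/+ and 37.2 ± 3.497 in Ireb2-/- at ZT5. Reads in coding sequences (CDS) numbered 2448915 to 13439600 in the RPF libraries and 852293 to 3993492 in the RNA libraries. The 5 hepatocyte markers (Alb, Apoa1, Ttr, Cps1 and Serpina1a) together gave 148525 to 239772 RPF CPM per liver, and the 4 Kupffer cell markers 257 to 582.4. Of the other markers, 4 of 4 endothelial, 3 of 3 stellate, 3 of 4 cholangiocyte and 3 of 3 red blood cell genes had enough reads to test. The RNA library of Ireb2+/+ ZT5 replicate 3 stood apart, with 0.947% of CDS reads from the mitochondrial genome against 3.07% to 7.21% in the other 23 RNA libraries, and with 17.2% of its counts in 3′ UTRs against 22.1% to 27.6%. The main results that use it are also given without that mouse. In bulk liver, fewer cells of a type and less RNA per cell cannot be told apart.

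The peroxidases were represented by Gpx1, which reduces hydrogen peroxide with glutathione in the cytosol, and Gpx4, which reduces lipid peroxides in membranes. Gpx1 (chromosome 9, 108339080 to 108340342, mouse build GRCm38) had 1626 ± 313 RNA CPM and 1822 ± 506 RPF CPM over the 24 livers. Gpx4 (chromosome 10, 80047166 to 80056439) had 47.6 ± 11.8 RNA CPM and 46.4 ± 13.3 RPF CPM. These Gpx4 values rest on 35 to 295 RNA reads a library. RefSeq lists 2 Gpx4 pseudogenes, so reads may have been split or lost there, and no read was counted in its 3′ UTR column.

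Selenop (chromosome 15, 3270767 to 3280510), the plasma selenium carrier whose protein holds several selenocysteines, had 4052 ± 550 RNA CPM and 2620 ± 282 RPF CPM. Selenop and Gpx1 reads dominated the set. Selenop took a median of 50.4% of the RPF counts of the 10 members and Gpx1 34.7%, and in RNA the shares were 65.5% and 25.8%. Together the 10 members held a median of 0.435% of all CDS reads in RPF libraries and 0.727% in RNA libraries. Such shares are not per length, so they do not rank the mRNAs by number of molecules.

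Of the thioredoxin reductases, the cytosolic Txnrd1 (chromosome 10, 82833951 to 82897724) had 110 ± 16.3 RNA CPM and 136 ± 12.9 RPF CPM, and the mitochondrial Txnrd2 (chromosome 16, 18426417 to 18479073) had 29.9 ± 4.92 and 44.9 ± 6.02. Dio1 (chromosome 4, 107291465 to 107307168), the deiodinase that makes active thyroid hormone in liver, had 100 ± 33.5 RNA CPM and 69.3 ± 22.05 RPF CPM. It varied most of the 10 in RNA relative to its mean, from 41.2 to 154 CPM. Selenof (chromosome 3, 144570427 to 144597677), an endoplasmic reticulum protein of glycoprotein folding, had 94.2 ± 12.0 RNA CPM and 103 ± 17.2 RPF CPM. Selenok (chromosome 14, 29968380 to 29975074), a small protein of the endoplasmic reticulum membrane, had 15.4 ± 4.64 RNA CPM, from only 13 to 80 reads a library, and 24.5 ± 7.61 RPF CPM. RefSeq lists 8 Selenok pseudogenes, so its values are uncertain in the same way as those of Gpx4. Selenow (chromosome 7, 15917208 to 15922371), a small protein with a thioredoxin-like fold, had 29.6 ± 4.64 RNA CPM and 26.9 ± 8.64 RPF CPM. Msrb1 (chromosome 17, 24736593 to 24742778), which repairs oxidised methionine, had 136 ± 16.0 RNA CPM and 328 ± 74.0 RPF CPM.

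**Figure D1:**
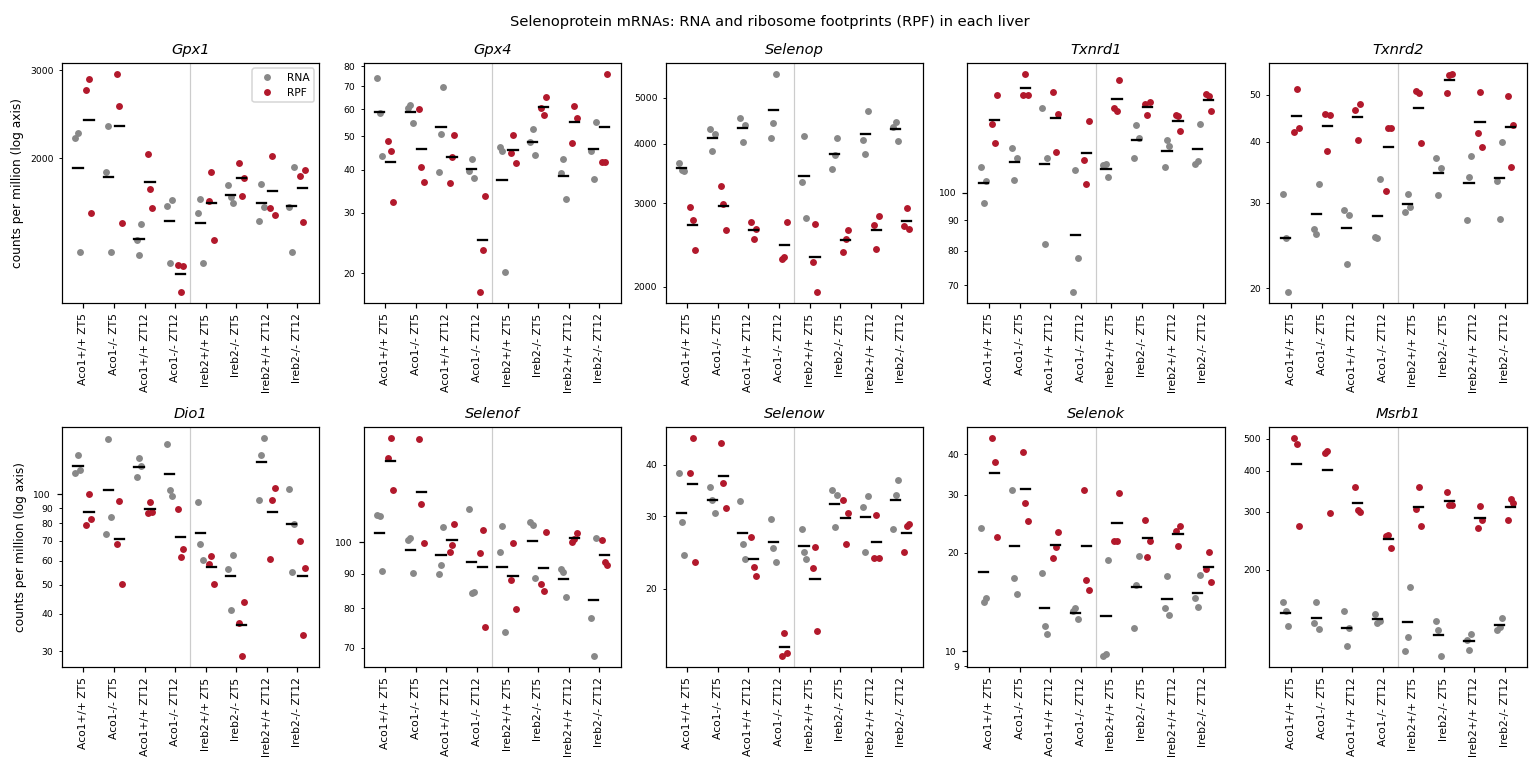
RNA (grey) and RPF (red) levels of the 10 selenoprotein mRNAs in CPM on a log axis; each point is 1 liver, the black bar is the mean of 3, and the line separates the Aco1 and Ireb2 lines. The 3 Aco1-/- ZT12 livers have the lowest Selenow RPF values (13.7 to 15.6 CPM) and the lowest Gpx1 RPF values (1078 to 1223 CPM) of all 24.

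Promoter windows of RefSeq (GRCm38.p6), each running from 250 bases before to 50 after an annotated start, were searched on both strands for the E-box CACGTG, the letters bound by clock proteins, and for the antioxidant response element TGACNNNGC, the letters bound by NRF2. No E-box was found in the 17 windows of the 10 members, and 7.15% of all 32851 windows hold it. The antioxidant element was found in 2 of the 17 windows, against 12.4% of all windows. Both matches are shown, gene strand from 5′ to 3′, with the element in capitals, because Txnrd1 is known as an NRF2 target:
Txnrd1 (chr10:82859105-82859131, plus strand, the element read on the opposite strand): tggatttttGCTTTGTCAttctgacac
Selenok (chr14:29968327-29968353, plus strand): ttacttgtgTGACTGGGCggaacctct
The Selenok match begins 44 bases before the annotated start. The Txnrd1 match begins 92 bases before the second of its 3 annotated starts, which lies within the gene. Neither mRNA passed the test in any comparison of RNA.

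Footprints of all 10 mRNAs lay mostly in the coding sequence. The CDS column held a median of 86.6% (Selenok) to 100% (Txnrd2) of a member's RPF counts, against 91.8% for the median gene, while it held 23.3% (Selenok) to 90.01% (Gpx4) of its RNA counts. Selenok, Gpx4 (89.2%), Txnrd1 (88.8%) and Selenof (91.2%) were below the median gene in RPF, with 8.04% to 10.8% of their counts in the unassigned column. The 3′ UTR, where the SECIS element lies, took 53.6% of Msrb1 RNA counts, 55.8% of Selenok and 48.3% of Dio1, against 29.1% for the median gene. Selenof, Selenop, Txnrd1 and Selenow lay between 33.1% and 38.7%, and Txnrd2 (20.7%), Gpx1 (19.5%) and Gpx4 (0%) were below the median gene. Its share of RPF counts was far smaller. Pooled over the libraries, it was 0.0446% for Gpx1 (117 of 262134 counts), 0.103% for Selenop (418 of 405716) and 0.298% for Msrb1 (142 of 47579), it was highest for Selenow (0.458%) and Selenok (0.384%), and the median gene, pooled in the same way, had 0.283%. Selenop had the largest 5′ UTR share of the 10 in RPF. That column took a median of 7.40% of Selenop RPF counts, against 1.44% for the median gene and at most 4.37% for each of the other 9. In RNA the 5′ UTR share was larger in Selenow (16.9%) and Selenok (12.7%) than in Selenop (11.9%), against 2.86% for the median gene. Sephs2, the selenophosphate synthetase that is itself a selenoprotein, had a share of 11.4% in RPF.

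**Figure D2:**
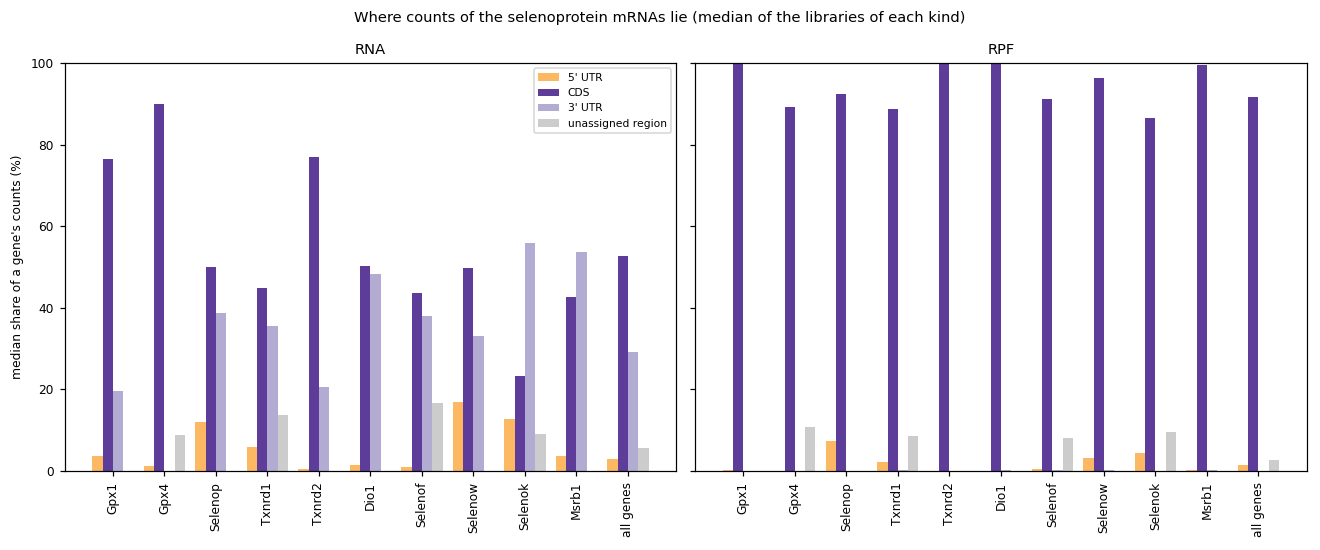
Median share (%) of each gene's counts in the 5′ UTR, CDS, 3′ UTR and an unassigned column, in RNA libraries (left) and RPF libraries (right), for the 10 members and the median of all genes tested. RNA counts spread into the 3′ UTR (53.6% for Msrb1), whereas the CDS holds 86.6% or more of each member's RPF counts.

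Translation efficiency (TE), the log2 ratio of RPF to RNA CPM in the same liver, ordered the members from Msrb1 (1.24 ± 0.30, n = 24 livers) through Selenok (0.66 ± 0.40), Txnrd2 (0.59 ± 0.26), Txnrd1 (0.32 ± 0.21), Gpx1 (0.14 ± 0.25), Selenof (0.12 ± 0.24), Gpx4 (-0.06 ± 0.53), Selenow (-0.19 ± 0.38) and Dio1 (-0.53 ± 0.17) to Selenop (-0.62 ± 0.17). Msrb1 ranked above 94.96% of all genes tested and Selenop above 22.8%. Msrb1 exceeded Selenok, the next in order, in 22 of 24 livers, by 0.58 ± 0.45. Every other pair of neighbours had a mean difference below its SD over single livers, from 0.02 ± 0.25 for Gpx1 and Selenof, where Gpx1 was higher in 13 of 24 livers, to 0.34 ± 0.35 for Selenow and Dio1, where Selenow was higher in 21. Txnrd1 was above Gpx1 in 19 livers and Txnrd2 above Txnrd1 in 18. The order rests on the CDS column: with all columns summed, mean TE was 1.14 for Txnrd2, 0.88 for Gpx4, 0.67 for Gpx1 and -0.32 for Selenok.

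**Figure D3:**
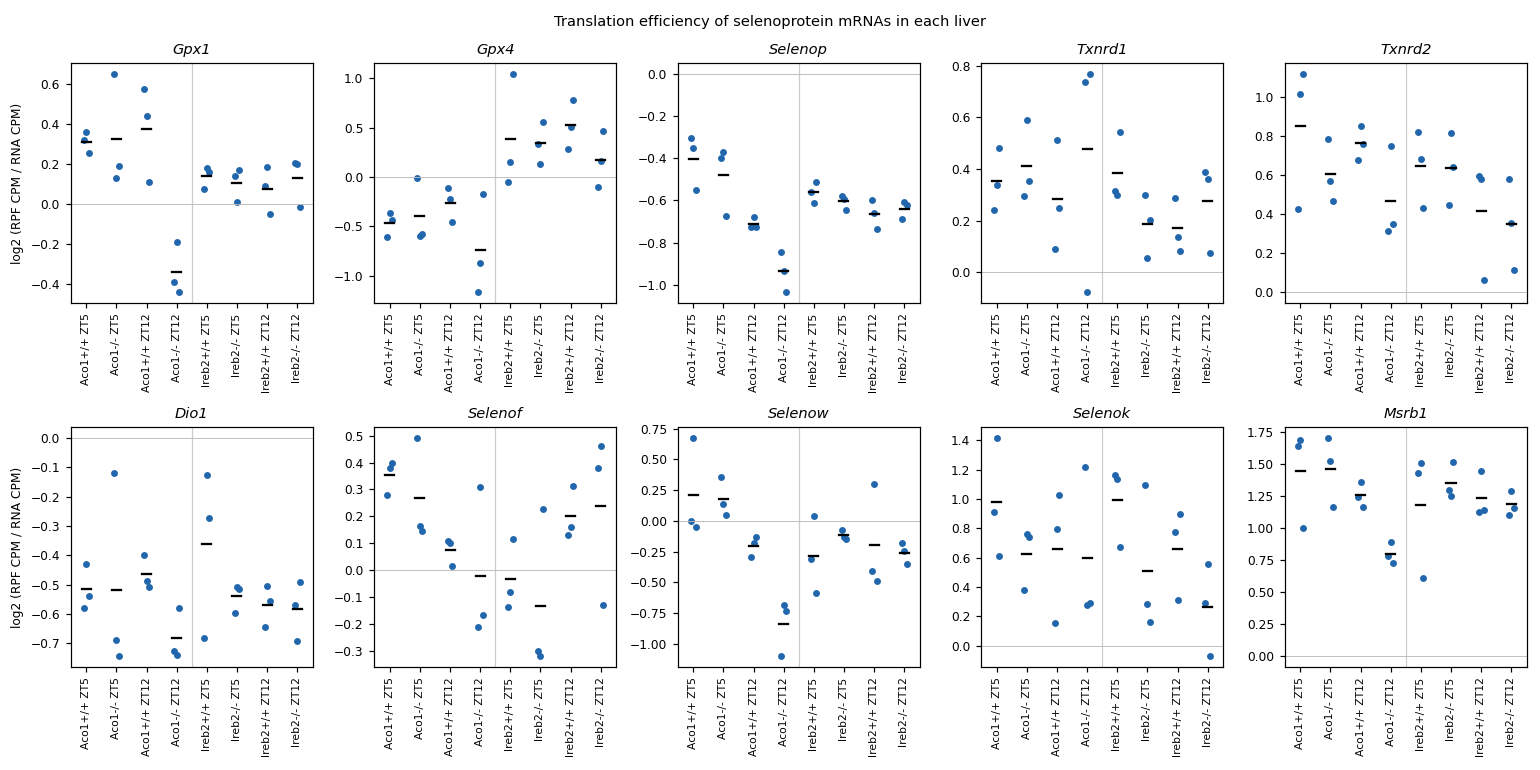
TE (log2 of RPF CPM over RNA CPM) of the 10 mRNAs; each point is 1 liver, the bar is the mean of 3, and the line separates the Aco1 and Ireb2 lines. Gpx1 TE lies between -0.44 and -0.19 in the 3 Aco1-/- ZT12 livers and between -0.05 and 0.65 in the other 21.

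The first comparison asked whether loss of either iron regulatory protein changed the selenoprotein mRNAs at a given timepoint. The clearest difference was in the translation of Gpx1 in Aco1-/- livers at ZT12. Gpx1 RPFs were 1223, 1078 and 1213 CPM in the 3 Aco1-/- livers and 2041, 1736 and 1590 CPM in the 3 Aco1+/+ livers. All 3 knockout livers were below all 3 controls, though how often this held among all genes was not counted. Gpx1 RNA did not fall with them, at 1606, 1232 and 1648 CPM in Aco1-/- against 1372, 1279 and 1474 CPM in Aco1+/+, and these groups overlapped. Gpx1 TE was therefore -0.39, -0.19 and -0.44 in the knockouts and 0.57, 0.44 and 0.11 in the controls. TE fell by 0.72 ± 0.13 on the log2 scale (SE; adjusted p = 0.0046 by edgeR's quasi-likelihood test, adjusted by Benjamini-Hochberg over all genes).

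Gpx1 was the only member of the 10 to pass in TE in that comparison, where 0.0935% of all genes tested passed. Selenow, Msrb1 and Selenop had an unadjusted p under 0.05 without passing, where 6.71% of all genes had one that low. Selenow TE was -1.10, -0.68 and -0.73 in Aco1-/- and -0.29, -0.18 and -0.13 in Aco1+/+ livers, without overlap, a difference of -0.61 ± 0.23 (adjusted p = 0.57 by edgeR). Msrb1 TE was 0.79, 0.89 and 0.73 against 1.24, 1.37 and 1.17, also without overlap, a difference of -0.46 ± 0.16 (adjusted p = 0.46 by edgeR). The share of all genes without overlap was not counted for knockout against control, so these separations only describe the members. Selenop TE was -0.84, -0.93 and -1.03 against -0.73, -0.68 and -0.72. Of the 10 members, 9 had a negative TE difference, with a median of -0.25 against 0.01 over all genes.

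In RPF none of the 10 passed at ZT12 in the Aco1 line, where 0.299% of all genes did. An unadjusted p under 0.05 was found for 12.7% of all genes and for 3 members. These were Gpx1 (-0.61 ± 0.24, adjusted p = 0.32 by edgeR), Gpx4 (-0.81 ± 0.23, adjusted p = 0.16 by edgeR) and Selenow (-0.71 ± 0.21, adjusted p = 0.17 by edgeR). Gpx4 RPFs were 17.6, 23.4 and 33.6 CPM in Aco1-/- and 36.6, 43.4 and 50.4 CPM in Aco1+/+ livers. DESeq2 called Gpx4 there. In RNA none passed, where 0.00935% of all genes did, and Gpx4 and Txnrd1 had an unadjusted p under 0.05, as had 7.66% of all genes. DESeq2 called none in RNA.

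Genes of the mitochondrial genome took 0.436%, 0.437% and 0.531% of CDS reads in the Aco1-/- ZT12 RPF libraries and 0.269%, 0.265% and 0.205% in the Aco1+/+ ZT12 RPF libraries. In the RNA libraries of the same livers they took 6.47%, 5.04% and 7.21% against 4.25%, 4.94% and 4.24%, also without overlap. The part of both differences in the Gpx1 result was not tested. The summed RPF CPM of the 4 endothelial markers did not overlap, at 234 to 288 in Aco1-/- and 292 to 296 in Aco1+/+, nor did that of the cholangiocyte markers, at 9.71 to 23.1 and 6.62 to 9.004, and their part was not tested. The sums of the hepatocyte markers (195309 to 209594 and 181956 to 202765) and of the Kupffer and stellate markers overlapped, as did the CDS share of RPF counts. Red blood cell sums overlapped too but spread widely in Aco1-/-, at 0.181 to 103 RPF CPM against 13.0 to 33.1 in Aco1+/+. The 5′ UTR share of RPF counts did not overlap, at 1.48% to 1.89% in Aco1-/- and 1.92% to 2.47% in Aco1+/+. The part of blood content and of this share was not tested. The Gpx1 TE call was lost, with the same sign, on leaving out Aco1-/- replicate 1 (-0.69, adjusted p = 0.050 by edgeR), Aco1+/+ replicate 1 (-0.62, adjusted p = 0.16) or Aco1+/+ replicate 2 (-0.68, adjusted p = 0.094), and it was not made when the libraries were left unpaired or by limma on TE per liver.

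At ZT5 the Aco1 knockout left no mark that passed the test. None of the 10 members passed in RNA, RPF or TE, where 0%, 0.00935% and 0.00935% of all genes did, and none had an unadjusted p under 0.05 in edgeR or a call by DESeq2. Gpx1 TE at ZT5 was 0.65, 0.13 and 0.19 in Aco1-/- and 0.32, 0.36 and 0.25 in Aco1+/+ livers, so the groups overlapped, with a difference of 0.01 ± 0.13. The knockout effect at ZT12 minus that at ZT5 was -0.73 ± 0.18 for Gpx1 TE, with an unadjusted p under 0.05 but an adjusted p of 0.28 by edgeR. No member passed this test of the difference between timepoints in RNA, RPF or TE, where 0%, 0% and 0.028% of all genes passed in the Aco1 line. Members with an unadjusted p under 0.05 numbered 0, 2 and 2, against 5.87%, 5.52% and 4.75% of all genes, and DESeq2 called none.

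**Figure D4:**
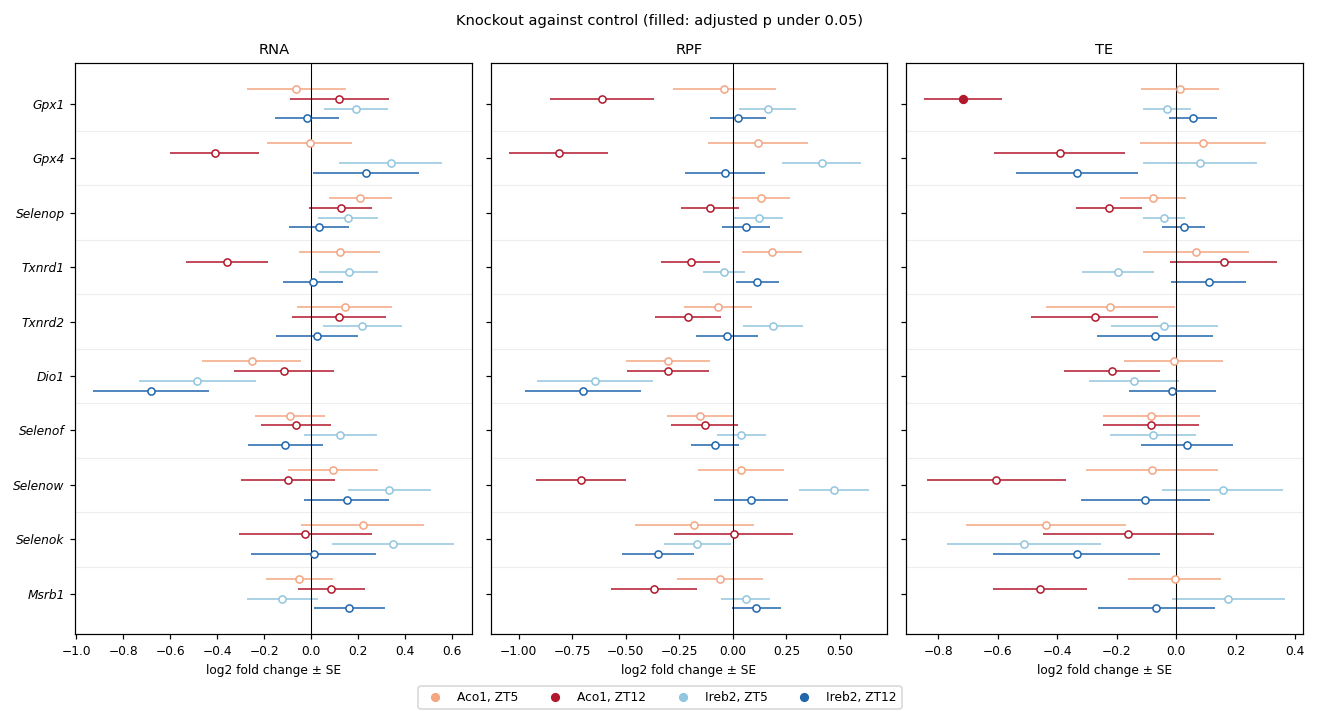
Log2 fold change ± SE of knockout against control for the 10 mRNAs in RNA, RPF and TE; colours mark the line and timepoint, and filled points have an adjusted p under 0.05. The single filled point is Gpx1 TE in the Aco1 line at ZT12, at -0.72.

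The Ireb2 knockout gave no call among the 10 members at either timepoint. At ZT5 the shares of all genes that passed were 0.00935% in RNA, 0.0654% in RPF and 0.00935% in TE, and at ZT12 they were 0.0187%, 0.028% and 0%. Of all genes, 5.64%, 7.64% and 7.01% had an unadjusted p under 0.05 at ZT5 and 4.21%, 7.62% and 3.56% at ZT12. Members with an unadjusted p under 0.05 numbered 0, 3 and 0 at ZT5 and 1, 1 and 0 at ZT12, and DESeq2 called none. Without Ireb2+/+ ZT5 replicate 3 the ZT5 numbers were 1 (Selenok, 0.70), 1 (Dio1, -0.73) and 2 (Selenok, -0.69, and Gpx4, 0.32), against 0.35 in RNA and -0.51 in TE for Selenok and 0.08 in TE for Gpx4 with it, and none was called. The difference between the timepoints gave no call and no unadjusted p under 0.05 in any of the 3 measures, where 0% of all genes passed in each, and DESeq2 called none. Without that replicate Gpx4 TE had an unadjusted p of 0.0048 (-0.64, adjusted p = 0.70 by edgeR), against -0.41 with it.

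Dio1 RPFs at ZT5 were 37.3, 28.9 and 43.9 CPM in Ireb2-/- and 58.8, 62.4 and 50.1 CPM in Ireb2+/+ livers, without overlap, which was not counted over all genes. At ZT12 they were 70.0, 34.0 and 56.8 CPM against 61.0, 95.5 and 105 CPM, where the groups overlapped. The differences were -0.64 ± 0.27 (adjusted p = 0.63 by edgeR) and -0.70 ± 0.27 (adjusted p = 0.59 by edgeR). Dio1 RNA differed by -0.48 ± 0.25 and -0.68 ± 0.25, and Dio1 TE by -0.14 ± 0.15 and -0.01 ± 0.15, none of which passed. Without Ireb2+/+ ZT5 replicate 3 the ZT5 differences were -0.62 in RNA, -0.73 in RPF and -0.07 in TE, and none passed. Going the other way, Gpx4 and Selenow RPFs and Selenow and Txnrd1 RNA were higher in Ireb2-/- at ZT5 without overlap, and none passed. The summed CPM of the 5 hepatocyte markers also differed between Ireb2-/- and Ireb2+/+ livers, without overlap in RNA at ZT5 (115699 to 134211 against 93133 to 114215) and ZT12 (126443 to 146349 against 107502 to 118120) and in RPF at ZT12 (204016 to 239772 against 177304 to 195268). Endothelial RNA sums did not overlap at ZT12 either (247 to 256 against 259 to 285), and the part of these markers was not tested. Gpx1 TE in this line spanned -0.05 to 0.20 over all 12 livers, and the knockout differences were -0.03 ± 0.08 at ZT5 and 0.06 ± 0.08 at ZT12.

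The second comparison asked what changed between ZT5 and ZT12. Averaged over the 4 genotypes, 1 of the 10 mRNAs rose in RNA (Selenop), 4 fell in RPF (Gpx1, Selenow, Selenok and Msrb1) and 1 fell in TE (Selenop). The shares of all genes that passed were 22.3% in RNA, 31.8% in RPF and 0.486% in TE, so the counts in RNA and RPF are near or under what the whole transcriptome gave. The labels name no preparation batch, so none could be tested against timepoint.

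Selenow fell furthest. Its RPFs in Aco1-/- livers were 45.1, 36.0 and 31.4 CPM at ZT5 and 13.7, 15.6 and 13.9 CPM at ZT12, with no overlap. They fell by 1.39 ± 0.21 on the log2 scale (adjusted p = 0.00045 by edgeR). Features of these Aco1-/- libraries also differed without overlap between ZT5 and ZT12. The mitochondrial genome took 0.210% to 0.297% and 0.436% to 0.531% of RPF CDS reads and 3.71% to 4.85% and 5.04% to 7.21% of RNA CDS reads, the CDS took 93.3% to 95.02% and 95.1% to 96.1% of RPF counts, and 3′ UTRs took 24.001% to 25.5% and 27.1% to 27.5% of RNA counts. Their part in the Aco1-/- changes between timepoints was not tested. In Aco1+/+ livers they were 38.2, 46.4 and 23.2 CPM at ZT5 and 26.6, 22.6 and 21.5 CPM at ZT12, with overlap and a difference of -0.64 ± 0.20 (adjusted p = 0.062 by edgeR). In the Ireb2 line the ZT5 and ZT12 livers overlapped in both genotypes, at 15.7 to 32.9 CPM and 23.8 to 30.2 CPM. Selenow RNA did not pass in any genotype, with a difference of -0.37 ± 0.20 in Aco1-/- livers.

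Gpx1, Gpx4 and Msrb1 also fell in RPF between ZT5 and ZT12 in Aco1-/- livers, which with Selenow made 4 of 10 members, where 12.1% of all genes passed. Gpx1 RPFs were 2950, 2540 and 1480 CPM at ZT5 and 1223, 1078 and 1213 CPM at ZT12, and fell by 0.99 ± 0.24 (adjusted p = 0.017 by edgeR). Gpx4 RPFs were 60.1, 40.7 and 36.7 CPM at ZT5 and 17.6, 23.4 and 33.6 CPM at ZT12, and fell by 0.91 ± 0.24 (adjusted p = 0.019 by edgeR). Msrb1 RPFs were 451, 460 and 297 CPM at ZT5 and 254, 256 and 233 CPM at ZT12, and fell by 0.70 ± 0.20 (adjusted p = 0.031 by edgeR). All ZT12 livers were below all ZT5 livers in these 4 genes and in Txnrd1, which was not called, and in 15.1% of all genes. The 4 were called on the same values, so their separation is no further support. Gpx1 TE fell as well, by 0.67 ± 0.13 (adjusted p = 0.014 by edgeR), and was the only member called in TE, where 0.15% of all genes passed. Leaving out Aco1-/- ZT5 replicate 1 ended the RPF calls of Gpx1, Gpx4 and Msrb1 and the TE call of Gpx1 (TE -0.50, adjusted p = 0.47 by edgeR), and leaving out Aco1-/- ZT12 replicate 1 ended that TE call too (-0.64, adjusted p = 0.12). The Gpx1 RPF call was also lost without Aco1-/- ZT12 replicate 2 (-0.93) or ZT5 replicate 2 (-0.92), the Gpx4 call without ZT12 replicate 1 (-0.70) or 2 (-0.87), and the Msrb1 call without ZT12 replicate 1, 2 or 3 (-0.73 to -0.66) or ZT5 replicate 2 (-0.60). Over the 6 fits that each left out a mouse, the RPF call was kept in 6 for Selenow, 3 for Gpx1, 3 for Gpx4 and 1 for Msrb1, and the Gpx1 TE call in 4.

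The ZT5 livers of the Aco1 line were uneven in these genes. Replicates 1 and 2 had 2735 and 2881 Gpx1 RPF CPM in Aco1+/+, and replicate 3 had 1549. The same replicate numbers gave 2950, 2540 and 1480 CPM in Aco1-/-. Msrb1 RPFs were 502, 483 and 271 CPM in Aco1+/+ and 451, 460 and 297 CPM in Aco1-/-. Gpx1 RNA showed the same split, at 2191, 2244 and 1299 CPM in Aco1+/+ and 1879, 2321 and 1296 CPM in Aco1-/-, so both assays of the same livers were high or low together.

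In Aco1+/+ livers no member passed between timepoints, where 7.05% of all genes passed in RNA, 6.64% in RPF and 0.0187% in TE. Members with an unadjusted p under 0.05 numbered 2 in RNA, 3 in RPF (Selenof, Selenow and Selenok) and 2 in TE, and DESeq2 called 0, 1 (Selenow) and 0. Of all genes, 20%, 20.7% and 7.49% had such an unadjusted p. In Aco1-/- livers none passed in RNA, where 5.15% of all genes did. There 3 members and 19.3% of all genes had an unadjusted p under 0.05, and DESeq2 called 0 members. In Ireb2+/+ livers none passed, where 2.29% of all genes did in RNA, 7.53% in RPF and 0.533% in TE. An unadjusted p under 0.05 was found for 15.1%, 21.7% and 8.22% of all genes. DESeq2 called 1 member (Dio1) in RNA, 0 in RPF and 0 in TE. Members with an unadjusted p under 0.05 numbered 2, 1 and 0. Without ZT5 replicate 3 those numbers were 1 (Selenok, 0.62), 0 and 2 (Gpx4, 0.49, and Selenof, 0.31), and none was called by edgeR. In Ireb2-/- livers none passed, where 2.77%, 5.73% and 0.00935% of all genes did, with 1, 1 and 1 at an unadjusted p under 0.05 and none called by DESeq2. That unadjusted level was reached by 14.6%, 19.3% and 4.52% of all genes.

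**Figure D5:**
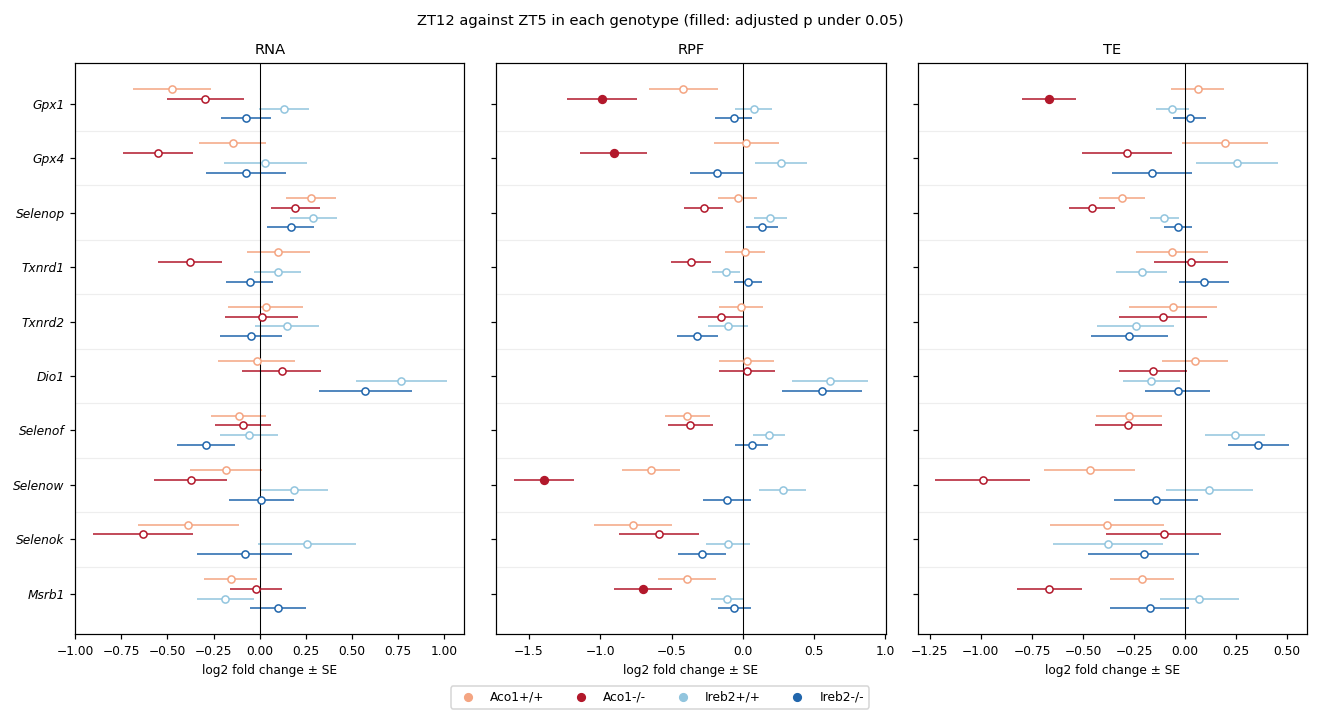
Log2 fold change ± SE of ZT12 against ZT5 for the 10 mRNAs in RNA, RPF and TE, by genotype; filled points have an adjusted p under 0.05. All 5 filled points belong to Aco1-/- livers: Gpx1, Gpx4, Selenow and Msrb1 in RPF, with Selenow lowest at -1.39, and Gpx1 in TE at -0.67.

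The averages over genotypes were uneven between the lines. The Aco1 and Ireb2 lines were therefore fitted apart, a step chosen after the data had been seen. Between ZT5 and ZT12, 5 of 10 members fell in RPF in the Aco1 line, where 27.9% of all genes passed, and none fell in the Ireb2 line, where 15.3% of all genes passed and Dio1 rose. The 5 were Selenow (-1.02 ± 0.14), Gpx1 (-0.70 ± 0.15), Selenok (-0.68 ± 0.17), Msrb1 (-0.55 ± 0.12) and Selenof (-0.38 ± 0.10). In the Ireb2 line the same 5 gave 0.08 ± 0.14, 0.01 ± 0.15, -0.20 ± 0.17, -0.09 ± 0.12 and 0.12 ± 0.10, and without Ireb2+/+ ZT5 replicate 3 they gave -0.0007, -0.05, -0.10, -0.13 and 0.09. Aco1+/+ libraries, like those of Aco1-/-, had features that differed without overlap between ZT5 and ZT12. The CDS took 91.9% to 93.6% and 94.8% to 95.1% of their RPF counts. Cholangiocyte marker RPF sums were 12.7 to 20.5 and 6.62 to 9.004 CPM. The part of these features was not tested.

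The difference between the lines was then tested itself. It passed for 2 members in RPF, Selenow (-1.10 ± 0.20, adjusted p = 0.0050 by edgeR) and Selenof (-0.50 ± 0.14, adjusted p = 0.041 by edgeR), where 3.19% of all genes passed, and Gpx1 did not pass (-0.71 ± 0.21, adjusted p = 0.068 by edgeR). Without Ireb2+/+ ZT5 replicate 3, the difference between the lines was -1.02 ± 0.19 for Selenow (adjusted p = 0.0090 by edgeR) and -0.47 ± 0.14 for Selenof, which no longer passed (adjusted p = 0.064 by edgeR). Without the Aco1-/- groups the average over the other 3 genotypes called Selenok (-0.39 ± 0.14) and Dio1, which rose (0.40 ± 0.14), in RPF, where 22.8% of all genes passed, while those of Gpx1 (-0.14 ± 0.12), Selenow (-0.16 ± 0.11) and Msrb1 (-0.19 ± 0.10) were lost.

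Over all mice, Selenop showed opposite signs in its mRNA and its TE. TE is RPF over RNA in the same liver, and Selenop RPFs differed little on average. The TE fall therefore mirrors the RNA rise and is not a separate finding. Selenop RNA at ZT5 and ZT12 was 3645, 3527 and 3504 against 4535, 4035 and 4384 CPM in Aco1+/+, and 4298, 3859 and 4197 against 4108, 4417 and 5609 CPM in Aco1-/- livers. In the Ireb2 line it was 3322, 4150 and 2787 against 4072, 3801 and 4689 CPM in Ireb2+/+, and 3538, 3797 and 4107 against 4341, 4455 and 4064 CPM in Ireb2-/- livers. Only the Aco1+/+ groups did not overlap. Averaged over genotypes it rose by 0.23 ± 0.07 on the log2 scale (adjusted p = 0.0088 by edgeR), and the call was kept in all 24 fits that each left out a mouse (0.20 without Ireb2+/+ ZT5 replicate 3).

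Selenop RPFs differed by 0.00 ± 0.06 over all mice, an average of -0.16 ± 0.09 in the Aco1 line and 0.16 ± 0.09 in the Ireb2 line, neither of which passed. The lines differed by -0.32 ± 0.12, which did not pass either (adjusted p = 0.15 by edgeR). In Ireb2-/- livers all ZT12 RPF values (2643 to 2929 CPM) were above all ZT5 values (2371 to 2630 CPM). Between the same groups the hepatocyte marker RPF sum was higher at ZT12 (204016 to 239772 against 153438 to 200468 CPM), and the endothelial (279 to 295 against 309 to 339) and cholangiocyte sums (5.26 to 10.97 against 14.7 to 19.2) were lower, all without overlap, and their part was not tested. Averaged over genotypes, Selenop TE fell by 0.23 ± 0.04 (adjusted p = 0.0038 by edgeR). Its TE call was kept in all 24 fits that each left out a mouse. By line, Selenop TE differed by -0.38 ± 0.06 in the Aco1 line and by -0.07 ± 0.06 in the Ireb2 line (-0.06 without Ireb2+/+ ZT5 replicate 3), and the difference between the lines did not pass (-0.31 ± 0.09, adjusted p = 0.14 by edgeR). The share of all genes that passed in TE was 1.14% in the Aco1 line, where Selenop, Gpx1 (-0.30 ± 0.08) and Selenow (-0.73 ± 0.15) fell, and 0.159% in the Ireb2 line, where no member passed and 1 had an unadjusted p under 0.05. The TE call of Selenop over all mice was not made without the Aco1-/- groups (-0.15 ± 0.05, adjusted p = 0.32 by edgeR), by limma, or with the libraries unpaired.

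Dio1 was the member that rose in the Ireb2 line. Dio1 RNA in Ireb2+/+ livers was 94.4, 68.1 and 60.6 CPM at ZT5 and 95.4, 136 and 154 CPM at ZT12, with no overlap. In Ireb2-/- livers it was 56.5, 41.2 and 62.8 CPM at ZT5 and 104, 55.0 and 79.9 CPM at ZT12, with overlap. Over the line, Dio1 rose by 0.67 ± 0.20 in RNA (adjusted p = 0.040 by edgeR), where 8.03% of all genes passed, and by 0.58 ± 0.17 in RPF (adjusted p = 0.025 by edgeR). Both calls were lost without Ireb2+/+ ZT5 replicate 3, whose RNA library stood apart and gave the 60.6 CPM above (RNA 0.60 ± 0.21, adjusted p = 0.098, and RPF 0.54 ± 0.19, adjusted p = 0.055, by edgeR). In the Aco1 line no member passed in RNA, where 16.1% of all genes did. An unadjusted p under 0.05 was found for 5 members, and its share of all genes was not counted. Dio1 differed in that line by 0.05 ± 0.19 in RNA and 0.03 ± 0.17 in RPF. The difference between lines did not pass for Dio1 (adjusted p = 0.54 in RNA and 0.21 in RPF, both by edgeR).

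Txnrd1 and Txnrd2 were among the steadier members in RPF, relative to their means. Neither passed in any comparison. Txnrd1 RPFs stayed between 104 and 158 CPM and Txnrd2 RPFs between 31.6 and 55.1 CPM in the 24 livers, and their TE differed between timepoints by -0.04 ± 0.08 and -0.17 ± 0.10 over all mice. In TE the SD of Txnrd2 was 0.26, against 0.17 for Dio1 and Selenop. Some groups still did not overlap, such as Txnrd1 RPFs at ZT12, higher in Ireb2-/- than in Ireb2+/+, and Txnrd1 RPFs in Ireb2+/+, lower at ZT12.

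Of 14 further selenoprotein genes, 9 had enough reads to test. Between ZT5 and ZT12 over all mice, 2 of the 9 fell in RNA and the same 2 in RPF, and none passed in TE, where 22.3%, 31.8% and 0.486% of all genes passed. They were Sephs2, which makes selenophosphate (RNA 1013 ± 125.3 CPM; RPF -0.32, adjusted p = 0.00048 by edgeR), and Selenoi, a phospholipid-synthesising enzyme (RPF -0.47, adjusted p = 2.7e-05 by edgeR). By genotype, Selenoi fell in RPF in Aco1+/+ (-0.66) and Ireb2+/+ livers (-0.75), where 6.64% and 7.53% of all genes passed. Selenos, a partner of endoplasmic reticulum protein disposal, fell in RPF in Aco1-/- livers (-0.73, adjusted p = 0.0075 by edgeR), where 12.1% of all genes passed. Sephs2 had 516 ± 82.6, Selenoo 98.2 ± 14.6 and Selenos 80.3 ± 14.8 RPF CPM. Gpx3 and Selenon were near 0, at 1.95 and 1.94 RPF CPM, and Dio3 and Selenom had too few reads to test. Gpx2, Dio2 and Selenov were not analysed here.

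Of 11 genes that make, insert or supply selenocysteine, 9 were tested. Over all mice, 1 rose and 2 fell in RNA, and 1 rose and 1 fell in RPF, where 22.3% and 31.8% of all genes passed. Scly, the lyase that recovers selenium from selenocysteine, fell in RPF (-0.50, adjusted p = 3.0e-06 by edgeR) and in RNA (-0.32), and Secisbp2l, a relative of SECISBP2, rose in RPF (0.20, adjusted p = 0.018 by edgeR) and in RNA (0.21). Sars, the enzyme that charges the tRNA with serine, fell in RNA (-0.29). In Aco1-/- livers Scly (-0.79) and Trnau1ap, a tRNA-associated factor (-0.87), fell in RPF, where 12.1% of all genes passed. Scly also fell in RPF in Ireb2-/- livers (-0.47), where 5.73% of all genes passed. Sars had 90.9 ± 9.82, Scly 81.2 ± 16.6 and Secisbp2l 59.6 ± 7.93 RPF CPM. None of the 9 passed in any comparison of knockout with control. Secisbp2 and Eefsec, the core recoding factors, named for that role after their values were seen, passed in no comparison, at 16.2 ± 2.20 and 51.4 ± 3.48 RPF CPM. Lrp8 and Lrp2, the receptors for selenoprotein P, were not analysed here.

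Of 18 cysteine-containing relatives and redox partners, 17 were tested. None passed in any comparison of knockout with control. Over all mice, Msrb2, a mitochondrial methionine sulfoxide reductase, fell in RPF (-0.73, adjusted p = 2.1e-05 by edgeR), as did the peroxiredoxin Prdx5 (-0.20, and -0.21 in RNA), and the glutaredoxin Glrx rose (0.36), 3 of 17 in RPF where 31.8% of all genes passed. In Aco1-/- livers Msrb2 (-0.83), Prdx5 (-0.49) and Gsr, glutathione reductase (-0.48), fell in RPF, where 12.1% of all genes passed. In the Ireb2 line Cat, catalase, fell in both genotypes (-0.34 and -0.31), Msrb2 fell in Ireb2+/+ (-0.83) and Txn2 rose in Ireb2-/- (0.39). There 7.53% (Ireb2+/+) and 5.73% (Ireb2-/-) of all genes passed in RPF. Cat had 5189 ± 615, the superoxide dismutase Sod1 923 ± 152 and the peroxiredoxin Prdx1 649 ± 82.97 RPF CPM, and Gpx7 was near 0, at 1.29.

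Of 6 NRF2 targets, 5 were tested. Gclc, the catalytic subunit of glutathione synthesis, fell over all mice in RNA (-0.52, adjusted p = 0.00053 by edgeR) and RPF (-0.60, adjusted p = 0.00013 by edgeR), Srxn1 fell in RPF (-0.56) and Gclm, the regulatory subunit, rose in RNA (0.20), 2 of 5 in each measure where 22.3% and 31.8% of all genes passed. Gclc also fell in both Aco1 genotypes (RPF -0.77 in Aco1+/+ and -1.04 in Aco1-/-), and Srxn1 in Aco1-/- livers (RPF -1.11). In RPF 6.64% of all genes passed in Aco1+/+ and 12.1% in Aco1-/- livers. Gclc had 328 ± 106.7, Gclm 197 ± 14.7 and the haem oxygenase Hmox1 30.5 ± 12.8 RPF CPM. None of the 5 passed in any comparison of knockout with control. Slc7a11 had too few reads to test.

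Within the set, the footprints of Gpx1, Msrb1 and Selenow rose and fell together over the 24 livers. Pearson's r of log2 RPF CPM was 0.93 for Gpx1 and Msrb1, 0.90 for Gpx1 and Selenow and 0.86 for Selenow and Msrb1, whereas it was -0.27 for Txnrd1 and Dio1. Among 6262 other genes with a mean of at least 10 RPF CPM, the highest r was with Mien1 for Gpx1 (0.95) and for Msrb1 (0.90), with Uqcc3 for Selenow (0.92), Ywhaz for Gpx4 (0.89), Sdf2l1 for Selenok (0.88), Cox6a1 for Selenof (0.84), Mup13 for Dio1 (0.81), Rab7 for Selenop (0.81), Lsg1 for Txnrd1 (0.79) and Oit3 for Txnrd2 (0.79). The points share library, line and timepoint, so these values describe the 24 libraries.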

How the data were processed

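Livers of single mice were used, without pooling. The authors trimmed reads with cutadapt 3.5, removed rRNA and tRNA reads with Bowtie2 and mapped the rest with STAR 2.70f (Ensembl gene models). Which counter was run, whether it used strand and what each column holds are not given in the sources used here. The deposited values are raw counts per gene in 5 columns, taken here, by how RPF and RNA spread over them, for 5′ UTR, CDS, 3′ UTR, a column of 0 and an unassigned column. Reads of an mRNA and of an overlapping or antisense gene may not be told apart.

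Repeat runs were added up within each library (77 files, 48 libraries), and the CDS column was used. Genes were kept by filterByExpr (minimum count 10, total 15), libraries were scaled by the upper quartile, and edgeR 4.0.16 quasi-likelihood tests (R 4.3.3, robust) were fitted for each line of 12 mice or for all 24, with p adjusted by Benjamini-Hochberg over all genes tested and a threshold of 0.05. SE was taken from the log2 fold change and the F statistic. TE was tested in a model of both libraries with a term for each mouse. Levels are CPM, and TE per liver used a prior count of 0.5. The scripts were tested on simulated data. Levels per kb were planned but could not be made without CDS lengths, so levels are not compared between genes. The members and lists were chosen with earlier results of these data known. Named genes of the lists are those that passed, were near 0 or were among the 3 with the most RPF reads (not per length). Replicates are separate mice. The share of all genes whose groups do not overlap was counted only for RPFs between timepoints in Aco1-/- livers. Elsewhere a lack of overlap describes the members and is no test. Libraries of a group differed by more than sampling noise in all 48 pairs (chi-square per degree of freedom 2.46 to 59.5). Alternatives used limma 3.58.1 and DESeq2 1.42.0.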

Additional observations from a re-analysis of the deposited data

Results flagged for a closer look

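The change in Selenow RPFs from ZT5 to ZT12 differed between the lines, by -1.10 on the log2 scale (Aco1 line minus Ireb2 line, adjusted p = 0.0050 by edgeR), and that in Selenof RPFs by -0.50 (adjusted p = 0.041 by edgeR, and 0.064 without Ireb2+/+ ZT5 replicate 3). In both genes the Aco1 line fell and the Ireb2 line did not pass.

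Selenof differences between timepoints had opposite signs in the controls of the lines, and none of them passed the test. In RPF every Aco1+/+ liver was lower at ZT12 than at ZT5 (-0.39) and every Ireb2+/+ liver higher (0.19). In TE the same held, with -0.28 and 0.24. Without Ireb2+/+ ZT5 replicate 3 the Ireb2+/+ values were 0.11 in RPF and 0.31 in TE. The difference between the control groups was not tested. The Aco1+/+ groups also differed without overlap in the CDS share of RPF counts and in cholangiocyte RPF sums, as given above. Their 5′ UTR share of RNA counts was 5.24% to 6.28% at ZT5 and 4.09% to 5.11% at ZT12. The part of these features was not tested.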

How the results depend on the processing

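Counts are of the 10 members called. In RNA, Ireb2+/+ time gave 1 with DESeq2 (0 as reported), and all-mice time (1 as reported) gave 2 with TMM scaling, 2 with DESeq2, 3 with all 5 columns summed and 0 in the Aco1 line alone. In RPF, the Aco1 knockout at ZT12 (0) gave 1 with only the groups compared and 1 with DESeq2. Aco1+/+ time (0) gave 1 with no filter, the first run alone, the replicate block, only the groups compared or DESeq2. All-mice time (4) gave 2 without Aco1-/- and 1 in the Ireb2 line alone. In TE, the Aco1 knockout at ZT12 (1) gave 0 unpaired and 0 by limma. Aco1-/- time (1) gave 3 with no filter, 3 with DESeq2, 2 with all columns, 2 with the replicate block, and 0 unpaired, by limma or with only the groups compared. All-mice time (1) gave 4 with all columns, 3 in the Aco1 line, and 0 unpaired, by limma, without Aco1-/- or in the Ireb2 line. The cause was not tested. The averages by line and without Aco1-/- were chosen after seeing the data. Of 30 values (10 mRNAs in RNA, RPF and TE), 9 in the Ireb2 line, 5 without Aco1-/- and 2 in the Aco1 line had the opposite sign to the all-mice average. Among values with an all-mice unadjusted p under 0.05 these were Gpx1 RPF 0.0057 and Selenow RPF 0.084 in the Ireb2 line, and Gpx1 TE 0.0072 without Aco1-/-. Leaving out Ireb2+/+ ZT5 replicate 3, also chosen after seeing the data, ended the Dio1 calls in the Ireb2 line and the Selenof difference between lines.

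Leaving out 1 mouse gave 0 to 1 in RNA for time in Aco1+/+ and in Aco1-/-, and 1 to 2 for all mice. In RPF it gave 0 to 3 for time in Aco1+/+, 1 to 4 in Aco1-/-, 0 to 1 in Ireb2-/-, 0 to 1 for the Aco1 knockout at ZT12 and 4 to 5 for all mice. In TE it gave 0 to 1 for that knockout, 0 to 3 for Aco1-/- time and 1 to 3 for all mice. Selenow RPF in Aco1-/- kept its call in all 6 fits (-1.505 to -1.23).

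Same replicate numbers were not taken to pair livers, since no set of groups had every pair above 0.1. Deviations of knockout and control livers of a timepoint correlated at -0.0859 to 0.128 in RNA and -0.0856 to 0.258 in RPF, where 5 of 12 pairs were above 0.1 and 7 matched their own number best. Ireb2 ZT12 livers came closest in RPF, at 0.126, 0.127 and 0.0971, each matching its own number best. Aco1 ZT5 livers gave 0.196, 0.0342 and 0.258 in RPF. Whether same-numbered livers of these groups share a source was not tested. Pairs of ZT5 and ZT12 livers correlated at -0.0689 to 0.066 in RNA and -0.134 to 0.0802 in RPF, with none above 0.1. The replicate block moved the counts of the Aco1+/+ RPF (1) and Aco1-/- TE (2) comparisons given above.

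Of the alternative values of single genes that had an unadjusted p under 0.05 as reported, 960 kept sign and side of the threshold, 50 newly passed, 35 no longer passed and 3 changed sign. With all columns summed, mean TE moved to 0.67 for Gpx1, 0.88 for Gpx4, 1.14 for Txnrd2 and -0.32 for Selenok. Selenok, Txnrd2 and Selenow RNA rest on as few as 13, 25 and 29 reads a library, which limits their TE.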
